A study of Homo sapiens with 6 samples.

Results

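The numbered zinc finger genes of human chromosome 19 were examined in nascent transcription data. The genes were chosen by name and place: intervals of the deposited count table on chromosome 19 whose gene name is ZNF, a number and at most 1 further letter, with at least 10 counts in any library. The rule gave 233 of the 20333 intervals in the table, and all 233 also passed the filter on low counts, so that each of them was tested among 19902 genes. Of these genes, 224 are annotated as protein-coding and 8 as pseudogenes in the RefSeq gene table, and 1 name was not found there. They lay on both strands, 128 on the plus and 105 on the minus strand, with intervals from 1802 to 59234 bp and a median of 19486 bp.

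Most numbered ZNF genes encode proteins with tandem C2H2 zinc fingers, small folds held by a zinc ion that each contact a few bases of DNA. In many of those encoded on chromosome 19 the fingers follow a KRAB domain, which recruits the corepressor TRIM28 and, through it, the histone methyltransferase SETDB1, so that the bound DNA is packed into heterochromatin. The family grew by tandem duplication, which left its members in dense clusters along the chromosome, and many of the proteins bind and silence transposable elements.

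The study used T47D, a breast cancer line of luminal type labelled estrogen receptor positive and HER2 negative. The cells stood in growth factor-complete medium, and treatment lasted 5 h. They received DMSO (the solvent), 500 nM GDC0068 (an inhibitor of AKT kinase activity) or 100 nM INY-05-040 (an AKT degrader, labelled Degrader). The doses differ; the series states that they were set so that both drugs suppress signalling below AKT to a comparable extent. Each arm had 2 libraries of precision nuclear run-on sequencing (PRO-seq), which sequences the nascent RNA of engaged polymerases, labelled in a nuclear run-on. The series describes 2 independent experiments. Library totals ran from 25371819 to 32192576 counts, and the ZNF genes took 0.688% to 0.715% of a library. All 10 luminal markers examined, among them ESR1 and GATA3, were above 1 CPM (counts normalised to library size), whereas of 12 markers of immune, stromal, endothelial and basal cells only CD14 had an interval in the table, at a mean of 0.422 CPM. A ZNF gene had a median of 732 counts per library, where counting error alone is 3.7%, and the smallest count of any of them in any library was 57.

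The promoters of 5 of the genes are shown because these genes changed past the test's threshold and because the first and second of them are close relatives. The windows run from 250 bases before to 50 bases after the RefSeq start (GRCh38.p14), 5′ to 3′ on the strand of the gene. Capitals mark matches, on either strand, to the GC box GGGCGG, the CCAAT box CCAAT, the ETS element CCGGAAG or the CRE TGACGTCA. ZNF93 (chr19:19900696-19900995, plus strand) and ZNF66 (chr19:20776054-20776353, plus strand) lie in the same cluster, and their windows are identical at 85.5% of the columns of a global alignment. ZNF121 is at chr19:9584455-9584754 (minus strand), ZNF490 at chr19:12610764-12611063 (minus strand) and ZNF345 at chr19:36850626-36850925 (plus strand).
ZNF93: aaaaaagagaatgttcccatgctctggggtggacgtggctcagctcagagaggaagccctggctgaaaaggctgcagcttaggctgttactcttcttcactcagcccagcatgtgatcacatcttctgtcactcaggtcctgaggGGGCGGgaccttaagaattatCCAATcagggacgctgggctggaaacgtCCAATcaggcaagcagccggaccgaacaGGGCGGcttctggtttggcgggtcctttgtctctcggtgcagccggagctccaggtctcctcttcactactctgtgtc
ZNF66: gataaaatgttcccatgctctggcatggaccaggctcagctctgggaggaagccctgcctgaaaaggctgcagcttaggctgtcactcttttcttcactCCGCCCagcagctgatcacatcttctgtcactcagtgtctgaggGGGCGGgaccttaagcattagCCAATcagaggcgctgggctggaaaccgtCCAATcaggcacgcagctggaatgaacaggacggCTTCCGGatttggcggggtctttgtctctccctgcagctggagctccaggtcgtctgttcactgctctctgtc
ZNF121: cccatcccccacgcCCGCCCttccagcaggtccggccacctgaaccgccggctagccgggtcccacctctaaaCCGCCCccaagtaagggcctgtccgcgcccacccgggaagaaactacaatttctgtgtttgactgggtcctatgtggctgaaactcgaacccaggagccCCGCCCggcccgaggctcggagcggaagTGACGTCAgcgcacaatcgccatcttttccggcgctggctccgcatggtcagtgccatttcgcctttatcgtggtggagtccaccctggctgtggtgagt
ZNF490: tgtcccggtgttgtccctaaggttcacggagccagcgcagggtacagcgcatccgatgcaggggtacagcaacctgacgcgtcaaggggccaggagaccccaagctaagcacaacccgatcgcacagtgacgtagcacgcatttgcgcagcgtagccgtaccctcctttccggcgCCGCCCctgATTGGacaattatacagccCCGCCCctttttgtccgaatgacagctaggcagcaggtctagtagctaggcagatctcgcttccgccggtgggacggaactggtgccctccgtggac
ZNF345: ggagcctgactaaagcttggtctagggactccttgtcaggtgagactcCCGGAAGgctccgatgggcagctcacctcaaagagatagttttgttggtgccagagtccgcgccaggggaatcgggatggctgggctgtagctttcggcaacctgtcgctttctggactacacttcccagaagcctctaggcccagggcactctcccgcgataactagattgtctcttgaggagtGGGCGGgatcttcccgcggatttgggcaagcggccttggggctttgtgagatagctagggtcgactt

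Of the 233 genes, 196 had a RefSeq promoter under their name, and in 184 its start lay within 250 bases of the start in the count table. GC boxes were found in 129 of these 184 windows (70.1%), against 45% of all 35116 promoters of the same length. CCAAT boxes were found in 100 (54.3%, against 34.6%) and ETS elements in 83 (45.1%, against 10.3%). By contrast, the TATA box TATAAA was found in 4 (2.17%, against 11.5%) and the E-box CACGTG in 6 (3.26%, against 7.26%). The CRE was found in 8 windows (4.35%, against 1.85%). The FOXO element GTAAACA, the site of transcription factors that AKT holds out of the nucleus, was found in 1 window (0.543%, against 3.42%). These are counts of letters and do not show binding. The 2 sets of windows were not matched. The 184 belong to genes with counts and a start near that of the count table, and all promoters were not so chosen. At the median the 184 also held more CG pairs (C followed by G) than all promoters, though not at the upper quartile. Near copies among the 184 were each counted. The part of these differences in the shares was not tested.

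Many of the windows were copies of each other. Windows were joined into groups through pairs with at least 70% identity, so other pairs of a group can fall below 70%. So joined, 48 of the 184 fell into 11 groups. The largest group held 20 genes, all in 1 cluster, among them ZNF93, ZNF66, ZNF43, ZNF91 and ZNF208. Identity between its windows ran from 63.4% to 91.0%. Over all 16836 pairs the median identity was 48.0%. The pair ZNF714 and ZNF431 was the closest, with 91.0%. Such copies can extend into the genes, and how reads that fit several copies were counted is not given in the sources used here.

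**Figure D1:**
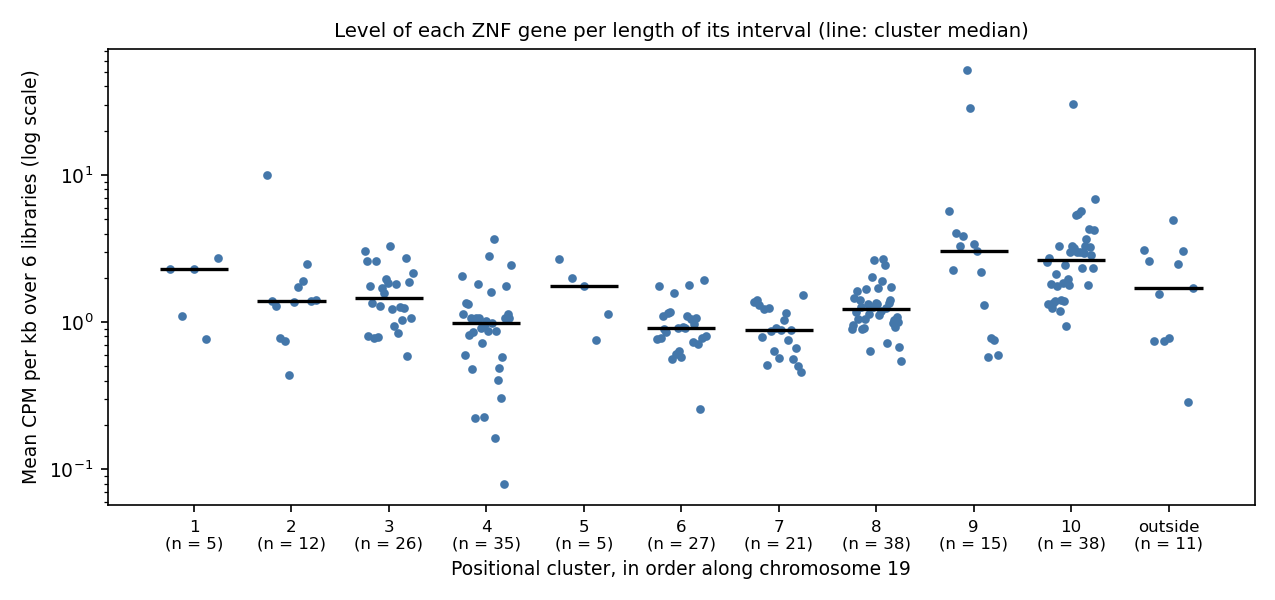
Mean CPM per kb of interval over the 6 libraries (log axis) for each of the 233 ZNF genes, by positional cluster along chromosome 19; black lines are cluster medians. ZNF580, ZNF581 and ZNF552 stand above the other genes, in clusters 9 and 10, and the lowest gene, ZNF723, is in cluster 4.

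Levels were compared per length of the interval. The median ZNF gene stood at 1.27 CPM per kb, with quartiles of 0.877 and 2.02, and the median of all genes tested was 1.71 CPM per kb. The highest level was that of ZNF580, at 51.8 CPM per kb, followed by ZNF552 at 30.2 and ZNF581 at 28.7 CPM per kb. ZNF580 and ZNF581 are neighbours on the plus strand with short intervals of 2.585 and 2.148 kb, and ZNF552 has an interval of 7.807 kb. At the other end stood ZNF723 (0.0792 CPM per kb), ZNF208 (0.164 CPM per kb) and the pseudogene ZNF826P (0.222 CPM per kb), all 3 in the same cluster. Across the 233 genes the level per kb fell with the length of the interval (Pearson's r of -0.521 on log2 scales, and -0.547 over all genes tested). Length is part of the level per kb, so this is a description only.

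ZNF580 had 131 and 134 CPM in DMSO, 137 and 129 CPM under GDC0068, and 141 and 131 CPM under Degrader. The libraries of the 3 arms thus overlapped. Its log2 fold change was 0.00 under GDC0068 (adjusted p = 0.985 by edgeR) and 0.04 under Degrader (adjusted p = 0.708 by edgeR). ZNF723 had 2.37 and 2.10 CPM in DMSO, 2.36 and 2.14 CPM under GDC0068, and 2.09 and 1.96 CPM under Degrader. Here the Degrader libraries were the lowest, and the change of -0.15 was not called (adjusted p = 0.683 by edgeR).

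Under Degrader, 12 of the 233 genes changed against DMSO at an edgeR adjusted p under 0.05 over all genes tested, 8 higher and 4 lower. They were 5.15% of the ZNF genes, where 15.3% of all genes tested were called (7.39% higher and 7.88% lower). No ZNF gene moved by as much as 1.5-fold: the log2 fold changes ran from -0.44 for ZNF264 to 0.42 for ZNF345. With the replicate number as a block, 33 genes were called, 21 higher and 12 lower, which is 14.2% against 30.7% of all genes (15.1% higher and 15.7% lower); the 12 were among them with the same sign. Both Degrader libraries lay above both DMSO libraries in 73 ZNF genes and below them in 49, together 52.4%, against 58.6% of all genes (29.3% above and 29.2% below). DESeq2 called 6 higher and 2 lower, with 11.4% of all genes called; its adjusted p was 0.0941 for ZNF790, 0.0759 for ZNF525, 0.0544 for ZNF667 and 0.075 for ZNF264. The count of 8 higher and 4 lower depended on single libraries. It was 1 and 0 without DMSO replicate 1, 3 and 1 without DMSO replicate 2, 2 and 1 without Degrader replicate 1, and 0 and 0 without Degrader replicate 2; of all genes, 4.68%, 9.16%, 8.89% and 4.67% were then called.

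The largest called increase under Degrader was that of ZNF345 (ENSG00000251247, chromosome 19, 36850876 to 36893034, plus strand). It had 19.2 and 24.3 CPM in DMSO, 24.8 and 26.9 CPM under GDC0068, and 26.4 and 31.5 CPM under Degrader. The libraries differed widely within each arm, with replicate 2 above replicate 1 in all 3, and both Degrader libraries lay above both DMSO libraries. The log2 fold change was 0.42 (SE 0.119; adjusted p = 0.0353 by edgeR; 0.00013 with the replicate block), and it was 0.25 without DMSO replicate 1 and 0.59 without DMSO replicate 2. Its interval overlaps that of ZNF829 on the opposite strand by 4911 bp, and ZNF829 changed by 0.12 (adjusted p = 0.410 by edgeR). ZNF790 (36817428 to 36838357, minus strand), the next numbered gene before it in the same cluster, went from 29.1 and 31.9 CPM to 35 and 37.3 CPM, an increase of 0.25 on the log2 scale (SE 0.0748; adjusted p = 0.0465 by edgeR, and 0.052 with total counts in place of TMM).

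ZNF233 (44259890 to 44275317, plus strand) showed tight libraries. It had 11.5 and 11.8 CPM in DMSO, 13.7 and 14.1 CPM under GDC0068, and 14.9 and 15.3 CPM under Degrader. The 3 arms did not overlap, in the order DMSO, GDC0068, Degrader. On the log2 scale the difference from DMSO was 0.38 under Degrader (SE 0.0939; adjusted p = 0.0207 by edgeR), and under GDC0068 it was 0.25 (adjusted p = 0.166 by edgeR).

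ZNF490 (12576100 to 12610813, minus strand) rose from 34.0 and 32.2 CPM in DMSO to 40.1 and 42.8 CPM under Degrader. The GDC0068 libraries, at 35.2 and 36.3 CPM, lay between the other arms. Under Degrader it rose by 0.32 on the log2 scale (SE 0.0667; adjusted p = 0.00831 by edgeR). ZNF20 (12092843 to 12140343, minus strand) had 40.4 and 43.0 CPM in DMSO, 43.5 and 43.6 CPM under GDC0068, and 49.8 and 49.3 CPM under Degrader, a change of 0.25 (SE 0.0593; adjusted p = 0.0160 by edgeR). Its interval in the table is 528% of the length of the RefSeq gene. Most of the stretch counted thus lies outside that gene, and the count is not that of ZNF20 alone even if strand was used. On the opposite strand the interval also overlaps the pseudogene ZNF788P by 20206 bp and AC022415.3 by 20483 bp, which adds to the count if strand was not used.

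In the other 3 genes called higher, the GDC0068 libraries also lay above both DMSO libraries. ZNF558 (8806170 to 8832301, minus strand) had 33.0 and 31.2 CPM in DMSO, 39.1 and 37.8 CPM under GDC0068, and 39.1 and 39.5 CPM under Degrader. It changed by 0.29 under Degrader (SE 0.0645; adjusted p = 0.0115 by edgeR) and by 0.26 under GDC0068 (adjusted p = 0.0526 by edgeR; 0.00349 with the block). ZNF667 (56439325 to 56477401, minus strand) went from 27.6 and 24.8 CPM to 32 and 31.7 CPM under Degrader, by 0.28 (SE 0.0773; adjusted p = 0.0319 by edgeR), with 30.5 and 30.5 CPM under GDC0068. ZNF552 (57807082 to 57814888, minus strand), the ZNF gene with the most counts, had 223 and 207 CPM in DMSO, 234 and 254 CPM under GDC0068, and 250 and 246 CPM under Degrader. At 0.21, the increase under Degrader was called (SE 0.0583; adjusted p = 0.0345 by edgeR).

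Among the genes called lower under Degrader, ZNF121 (ENSG00000197961, chromosome 19, 9560353 to 9584487, minus strand) had the smallest adjusted p. Its 56.0 and 50.6 CPM in DMSO fell to 42.8 and 42.3 CPM under Degrader and to 41.9 and 43.3 CPM under GDC0068. Every library of either drug lay below both DMSO libraries. On the log2 scale it fell by 0.33 under Degrader (SE 0.0644; adjusted p = 0.00676 by edgeR). Under GDC0068 it also fell by 0.33 (SE 0.0646; adjusted p = 0.0237 by edgeR), and the adjusted p-values with the block were 4.25e-05 and 0.000143. Without DMSO replicate 1 both changes were -0.25 and neither was called. ZNF121 was the only one of the 233 genes called in both contrasts without the block; the 2 contrasts share their DMSO libraries.

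ZNF66 (20776304 to 20809995, plus strand) and ZNF525 (53365714 to 53386593, plus strand) had a like pattern. ZNF66 had 39.1 and 40.7 CPM in DMSO, 34.6 and 33.7 CPM under GDC0068, and 32.9 and 33.3 CPM under Degrader, a change of -0.27 under Degrader (SE 0.0640; adjusted p = 0.0171 by edgeR). ZNF525 had 22 and 21.8 CPM in DMSO, 18.6 and 17.9 CPM under GDC0068, and 17.8 and 17.9 CPM under Degrader, a change of -0.30 (SE 0.0848; adjusted p = 0.0368 by edgeR). In both genes the drug libraries lay below both DMSO libraries, and the GDC0068 changes of -0.23 and -0.27 were not called (edgeR adjusted p of 0.0753 and 0.110; 0.00969 and 0.0241 with the block).

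ZNF264 (57191500 to 57194969, plus strand) encodes another member of the family. It had 8.71 and 10.4 CPM in DMSO, 9.32 and 10.9 CPM under GDC0068, and 6.89 and 7.10 CPM under Degrader. The Degrader libraries lay below the other 4, and the gene fell by 0.44 on the log2 scale against DMSO (SE 0.133; adjusted p = 0.0445 by edgeR). Against DMSO, GDC0068 gave 0.09 (adjusted p = 0.740 by edgeR) and became -0.03 without DMSO replicate 1. The interval of 3.470 kb covers 11.1% of the length of the RefSeq gene, so most of ZNF264 was not counted under that name.

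**Figure D2:**
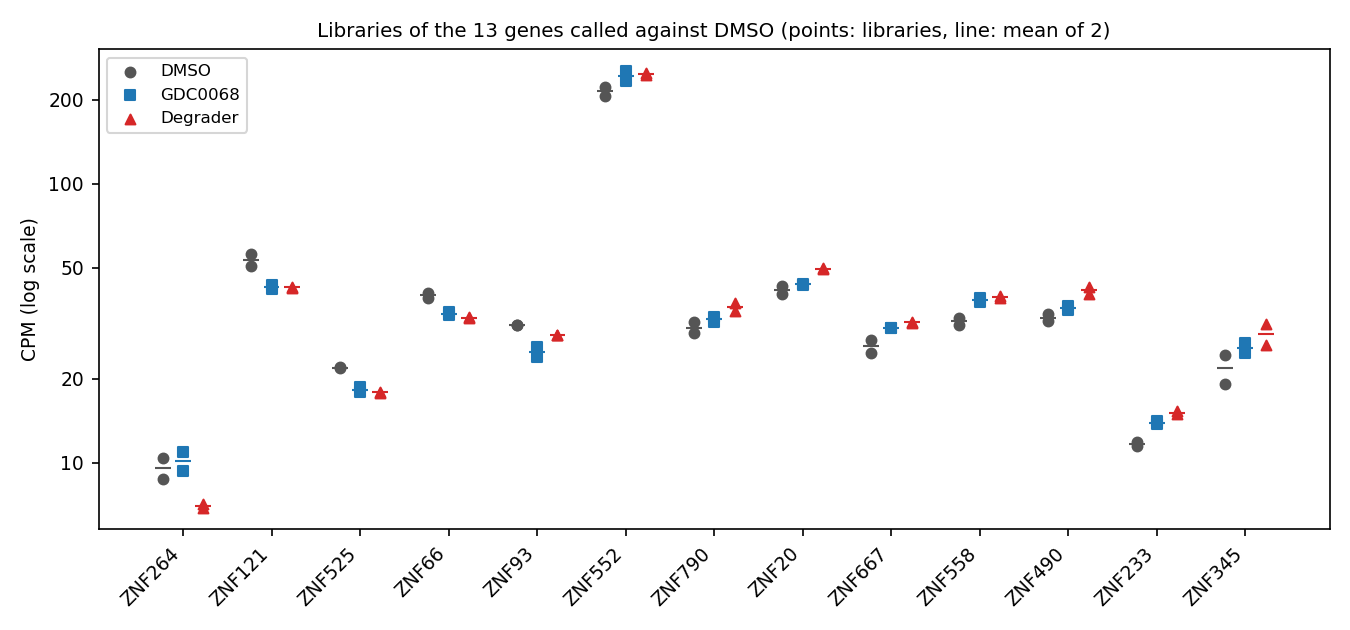
CPM (log axis) in each of the 6 libraries for the 13 ZNF genes called against DMSO without the replicate block, ordered by their change under Degrader; points are libraries and short lines are means of 2 libraries. In the 12 genes called under Degrader, both Degrader libraries (triangles) lie on one side of both DMSO libraries (circles).

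Under GDC0068, 2 of the genes were called without the block. The log2 fold changes of the 233 ran from -0.51 to 0.56, and the genes at these ends were not among them. Against DMSO, edgeR called 0 higher and 2 lower, ZNF121 and ZNF93, which is 0.858% of the ZNF genes against 3.58% of all genes tested (1.70% higher and 1.88% lower); 25 of the 233 had an unadjusted p under 0.05 (10.7%, against 20% of all genes). DESeq2 also called 0 higher and 2 lower, with 3.04% of all genes called. With the replicate block 19 were called, 7 higher and 12 lower (8.15%, against 17.8% of all genes, with 8.87% higher and 8.91% lower). Both GDC0068 libraries lay above both DMSO libraries in 50 ZNF genes and below them in 65, together 49.4%, against 50.1% of all genes (26.1% above and 24% below). Neither lower gene was called without DMSO replicate 1, without GDC0068 replicate 1 or without GDC0068 replicate 2, where 0.185%, 1.48% and 0.521% of all genes were called. The log2 fold changes were then -0.25, -0.30 and -0.36 for ZNF121 and -0.33, -0.38 and -0.27 for ZNF93. Without DMSO replicate 2, ZNF121 alone was called. ZNF93 (ENSG00000184635, chromosome 19, 19900946 to 19935575, plus strand) encodes a KRAB zinc finger protein known to repress LINE-1 retrotransposons. It had 31.1 and 31.2 CPM in DMSO, 26.0 and 24.0 CPM under GDC0068, and 28.7 and 28.8 CPM under Degrader. Degrader libraries thus lay between those of the other arms, without overlap. The log2 fold change was -0.32 under GDC0068 (SE 0.0766; adjusted p = 0.0442 by edgeR) and -0.12 under Degrader (adjusted p = 0.335 by edgeR). It kept its GDC0068 call in 7 of 14 other settings. ZNF91, a relative of ZNF93 that represses SVA retrotransposons and shares 83.3% of the promoter window, had 66.5 and 63.4 CPM in DMSO, 62.8 and 69.6 CPM under GDC0068, and 68.6 and 69.8 CPM under Degrader, and its change of 0.03 under GDC0068 was not called (adjusted p = 0.848 by edgeR).

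Set directly against each other, the drugs differed in 0 of the 233 genes by edgeR at an adjusted p under 0.05, where 0.266% of all genes tested were called (0.116% higher and 0.151% lower under Degrader); 20 of the 233 had an unadjusted p under 0.05 (8.58%, against 14.1% of all genes). DESeq2 called 0, with 0.708% of all genes called. Both Degrader libraries lay above both GDC0068 libraries in 66 genes and below them in 29, together 40.8%, against 45% of all genes (22.1% above and 22.9% below). With the replicate block 5 were called, 4 higher and 1 lower (2.15%, against 10.4% of all genes, with 5.03% higher and 5.35% lower), and these are named here after their values were seen. ZNF264 was lower under Degrader than under GDC0068 by 0.54 on the log2 scale, with a 95% interval from -0.83 to -0.24 (adjusted p = 0.00330 with the block in edgeR, 0.114 without). ZNF490 was higher by 0.21 and ZNF20 by 0.19, each with an edgeR adjusted p of 0.0247 with the block. ZNF415 was higher by 0.20 (edgeR with the block, adjusted p = 0.0351) and ZNF160, its neighbour, by 0.18 (0.0269). The median log2 fold change over the 233 genes was 0.03, with 150 (64.4%) above 0, and over all genes it was 0.00 with 48.9% above 0; the list's median was 0.05 in replicate 1 and 0.02 in replicate 2.

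The spread of the changes is given beside that of other genes, without a test. Under Degrader the central 50% of the 233 log2 fold changes lay between -0.07 and 0.11, and between -0.13 and 0.13 for all genes tested. Changes over 1.25-fold were seen in 9 ZNF genes (3.86%) and in 15.5% of all genes, in 5.88% of the 238 ZNF genes of other chromosomes and in 12.1% of the 1153 other genes of chromosome 19. Under GDC0068 they were seen in 5 ZNF genes (2.15%), in 10.5% of all genes and in 3.78% of the ZNF genes of other chromosomes. The median standard error was similar, 0.0855 for the ZNF genes and 0.0906 for all genes in the Degrader contrast. The list of all genes reached lower counts, however, with a lower quartile of 209 against 455 for the ZNF genes. The 95% interval of the change lay wholly within 1.5-fold in 224 of the 233 genes under Degrader (96.1%). Under GDC0068 it did so in 228 (97.9%). Of all genes the shares were 77.6% and 80.9%, and of the ZNF genes of other chromosomes 95.4% in both contrasts. The list's median was 0.03 under Degrader and -0.01 under GDC0068, and the GDC0068 value was 0.00 with upper-quartile scaling and without GDC0068 replicate 1. The ZNF genes of other chromosomes were called in 10.9% under Degrader and 2.52% under GDC0068.

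**Figure D3:**
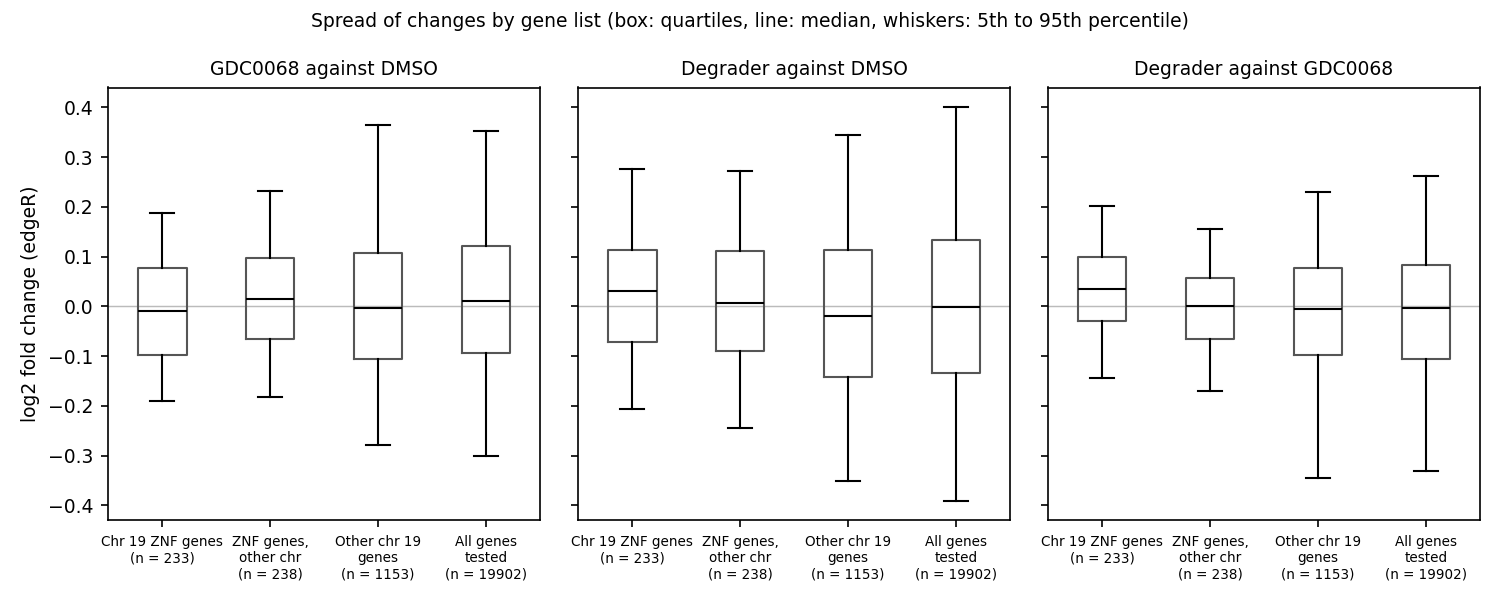
Log2 fold changes in 3 contrasts for the 233 chromosome 19 ZNF genes, the 238 ZNF genes of other chromosomes, the 1153 other genes of chromosome 19 and all 19902 genes tested; boxes are quartiles, lines medians and whiskers the 5th and 95th percentiles. The boxes of both ZNF lists are shorter than that of all genes in each panel.

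The changes in replicate 1 were compared with those in replicate 2. Within replicate 1 and within replicate 2 each drug was set against its own DMSO library, and across the 233 genes the resulting log2 ratios correlated with Pearson's r of 0.516 for Degrader and 0.499 for GDC0068. Over all genes tested the values were 0.509 and 0.332. These are correlations across genes, which share their libraries and are not independent replicates.

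Position was then taken into account. Members separated by gaps of at most 500 kb were joined, which gave 10 clusters of at least 5 genes holding 222 of the 233, numbered here along the chromosome. Clusters 8 and 10 were the largest, with 38 genes each (51571257 to 53580269, and 57191500 to 58481230). Cluster 4 (19668839 to 23944713), with 35 genes from ZNF101 to ZNF726, was the widest, and its median interval was 32 kb. Per length, the genes of clusters 9 and 10 stood highest, with medians of 3.03 and 2.65 CPM per kb, and those of cluster 7 lowest, with 0.879. The leading gene of each cluster by level per kb was, in order, ZNF77 (2.75 CPM per kb), ZNF414 (9.99), ZNF844 (3.31), ZNF43 (3.65), ZNF302 (2.70), ZNF607 (1.94), ZNF180 (1.54), ZNF888 (2.70), ZNF580 (51.8) and ZNF552 (30.2).

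Under GDC0068 the clusters had different medians, although single genes were rarely called. Cluster 4, which holds ZNF93 and ZNF66, had the lowest median log2 fold change, -0.10, with the same value of -0.10 within replicate 1 and within replicate 2; 8 of its 35 genes were above 0. Its summed level was 1084 and 1084 CPM in DMSO, 1011 and 1022 CPM under GDC0068, and 1062 and 1067 CPM under Degrader. Both GDC0068 libraries were the lowest of the 6 and both DMSO libraries the highest. With the block 5 of its 35 genes were called lower and 0 higher under GDC0068, where 8.91% of all genes were called lower and 8.87% higher. Within cluster 4, the 20 genes with similar promoters had a median of -0.12 (4 above 0), ranging from -0.32 for ZNF93 to 0.34 for ZNF493.

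Clusters 6 and 7 had medians above 0 under both drugs. So did cluster 2, with 0.0336 under GDC0068 and 0.0251 under Degrader, and cluster 10, with 0.0045 and 0.0242. Under GDC0068 the medians were 0.04 in cluster 6, with 19 of 27 genes above 0, and 0.08 in cluster 7, with 16 of 21. Cluster 5, with 5 genes, had a median of 0.07 under GDC0068. Under Degrader, cluster 6 (36182276 to 37779894, 27 genes, among them ZNF345 and ZNF790) had a median of 0.10, with 21 genes above 0 and medians of 0.06 and 0.13 in the 2 replicates. Its summed level was 733 and 758 CPM in DMSO, 752 and 779 CPM under GDC0068, and 782 and 819 CPM under Degrader; the Degrader libraries were the highest. In cluster 7 (43533513 to 44500510, 21 genes, among them ZNF233) the median was 0.12, with 16 genes above 0 and medians of 0.11 and 0.10. With the block, 7 of the 27 genes of cluster 6 and 2 of the 21 of cluster 7 were called higher and 0 in either lower, where 15.1% of all genes were called higher. In the other 8 clusters the median under Degrader lay between -0.05 in cluster 4 and 0.03. No test was made between clusters, and the genes of a cluster share libraries and, in part, sequence.

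Changes of neighbouring genes were weakly correlated. Over 212 pairs of adjacent numbered genes within a cluster, the fold changes (log2) gave Pearson's r values of 0.238 under GDC0068, 0.141 under Degrader and 0.0177 between the drugs. Length went with the changes too. Across the 233 genes, log2 length correlated with the change by -0.206 under GDC0068, 0.0642 under Degrader and 0.319 between the drugs. Over all genes tested the values were -0.044, 0.0777 and 0.149. In the ZNF genes of other chromosomes they were -0.228, -0.035 and 0.266. The part of length in the values of cluster 4, which has the longest intervals of the 10 clusters, was not tested.

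**Figure D4:**
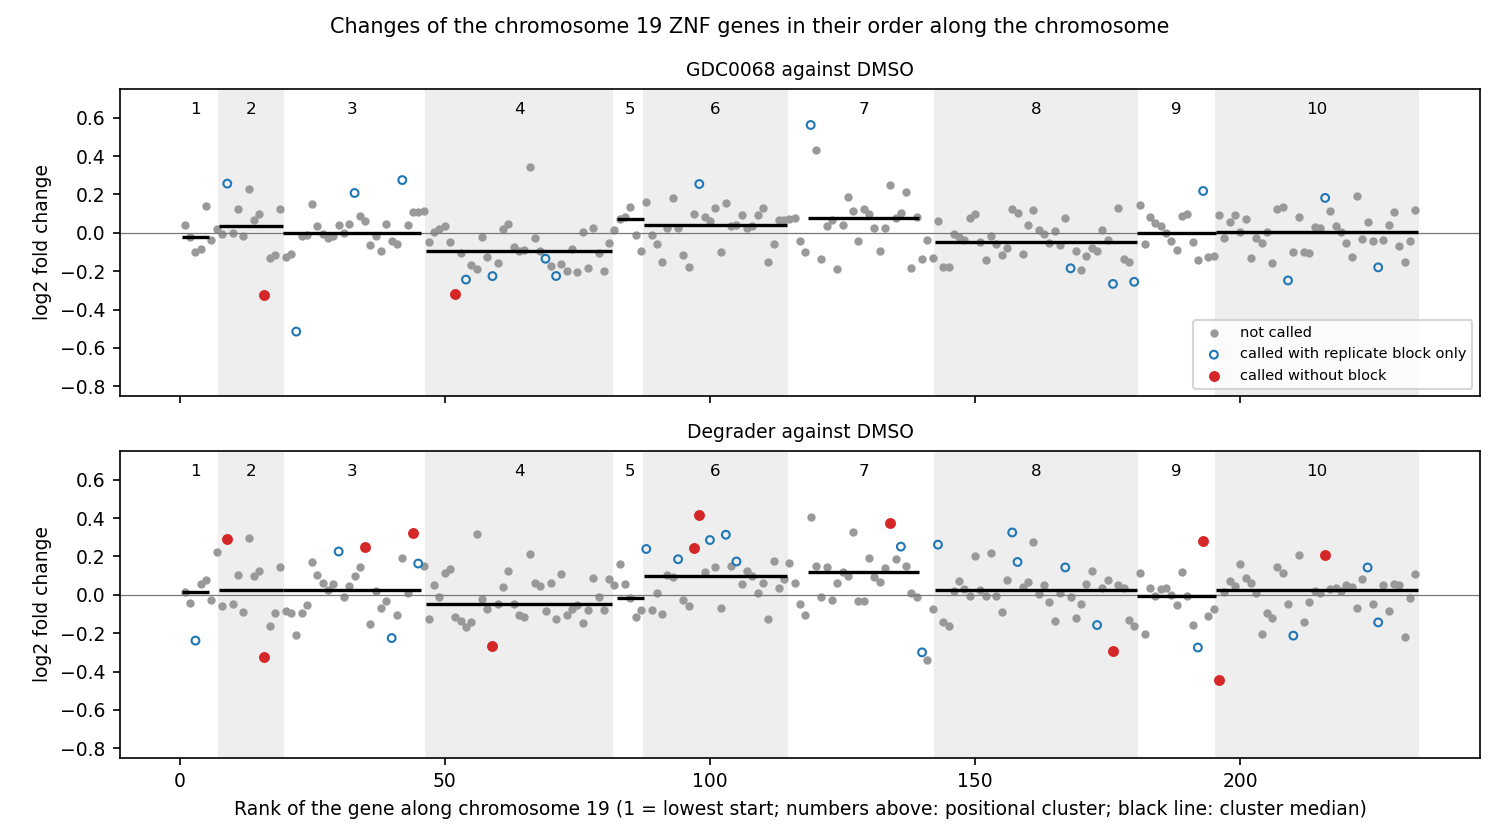
Log2 fold change against DMSO of each ZNF gene by its rank along chromosome 19, under GDC0068 (top) and Degrader (bottom); shaded and unshaded stretches are the numbered clusters and black lines their medians. Filled red points were called without the replicate block and open blue points only with it; the median of cluster 4 lies at -0.10 under GDC0068 and that of cluster 7 at 0.12 under Degrader.

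The partners through which KRAB zinc finger proteins act were followed in a list of 22 corepressor and heterochromatin genes, of which 21 were tested. Under Degrader 1 was called higher and 2 lower, and under GDC0068 0 higher and 2 lower. Of all genes, 15.3% and 3.58% were called. With the block, 4 were higher and 5 lower under Degrader, and 0 higher and 3 lower under GDC0068. The blocked shares of all genes were 30.7% and 17.8%. The medians of the list were -0.04 and -0.05. TRIM28, the shared corepressor, which is itself on chromosome 19 (58544455 to 58550715, plus strand), had 74.8 and 78.9 CPM in DMSO, 77.6 and 71.3 CPM under GDC0068, and 65.6 and 70.9 CPM under Degrader. The Degrader libraries lay lowest, and the difference of -0.17 from DMSO was not called without the block (adjusted p = 0.0869 by edgeR) and was called with it (0.00831). SETDB1, the methyltransferase, changed by 0.09 under Degrader (adjusted p = 0.239 by edgeR). The changes of the list under Degrader ran from -0.30 for HDAC2 to 0.21 for ATF7IP. HDAC2, like TRIM28, was called only with the block (edgeR adjusted p of 0.077 without it and 0.00562 with it).

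The genes called lower were UHRF1, which reads newly replicated DNA and brings in the maintenance DNA methyltransferase, and DNMT1, that enzyme; both also lie on chromosome 19 but outside the ZNF clusters. UHRF1 had 147 and 153 CPM in DMSO, 113 and 125 CPM under GDC0068, and 126 and 131 CPM under Degrader. It changed by -0.34 under GDC0068 (SE 0.0566; adjusted p = 0.0114 by edgeR) and by -0.23 under Degrader (SE 0.0563; adjusted p = 0.0204 by edgeR). DNMT1 had 137 and 135 CPM in DMSO, 112 and 119 CPM under GDC0068, and 114 and 116 CPM under Degrader, with changes of -0.23 (adjusted p = 0.0317 by edgeR) and -0.24 (adjusted p = 0.00856 by edgeR). In both genes all drug libraries lay below both DMSO libraries. ATF7IP, a partner of SETDB1, rose under Degrader from 90.5 and 98.0 CPM to 103 and 115 CPM, by 0.21 (SE 0.0629; adjusted p = 0.0400 by edgeR), a call that DESeq2 did not make (adjusted p = 0.0621). These 5 calls rested on 2 libraries per arm, so a fit that leaves 1 out has less to judge the spread by. Without DMSO replicate 1, which leaves 1 DMSO library, the calls were lost. UHRF1 was then at -0.37 and -0.25 under GDC0068 and Degrader, DNMT1 at -0.22 and -0.23, and ATF7IP under Degrader at 0.16. Without Degrader replicate 2 the Degrader values were -0.26 for UHRF1, -0.26 for DNMT1 and 0.12 for ATF7IP, and none was called.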

How the data were processed

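The data are raw counts per gene interval in 6 PRO-seq libraries, deposited by the authors as whole numbers with 1 column per library. Per the submitters' processing notes, cutadapt 1.14, Bowtie 1.2.2, SAMtools 1.3.1, HISAT2 2.2.1 and limma were used and the builds dm3, hg38 and GRCh38 are named, with no role or order. The counter, the use of strand, duplicates, a spike-in and the part of a gene counted are not given in the sources used here. Changes are therefore relative to the bulk of genes. Coordinates are those of the table, starts counted from 1; 231 of 232 ZNF genes with a RefSeq entry overlapped it in GRCh38.p14. Of the ZNF intervals, 17 overlapped another interval on the same strand and 43 on either strand. Many intervals differed in length from the RefSeq gene: of 232 with an entry, 135 were within 5% of its length and 31 were under 50%. Levels per kb and correlations with length are therefore those of the intervals.

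Counts were tested in R 4.3.3 with edgeR 4.0.16: filterByExpr (431 genes removed), TMM factors from 0.997 to 1.00, and 1 quasi-likelihood fit of all 6 libraries with a term per arm. Calls required an adjusted p below 0.05 (Benjamini-Hochberg, all 19902 genes). Each standard error is the log2 fold change divided by the root of F, and SD is over 2 libraries. Replicate numbers were taken as pairs because the series describes 2 independent experiments and each arm has numbers 1 and 2; same-numbered libraries deviated together (r of 0.160 to 0.205 over all genes). Blocked fits are given beside the unblocked ones. Alternatives included DESeq2 1.42.0.

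The genes and lists were chosen with earlier results of these data known. Genes named are those called (up to 8 each way per contrast, with separated arms) and called corepressors. Those with the highest and lowest level per kb overall and the highest per cluster are also named. ZNF91, ZNF829, TRIM28, SETDB1, HDAC2 and the blocked calls between the drugs were added afterwards. Promoter windows come from RefSeq (GRCh38.p14). Copies were joined through pairs with at least 70% identity, a value chosen after seeing the data.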

Additional observations from a re-analysis of the deposited data

How the results depend on the processing

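Gene by gene, 19 calls against DMSO (14 of ZNF genes and 5 of corepressor genes) were followed through 14 settings, and all of them kept their direction. All 19 were called with the replicate block, without a filter on low counts, with a stricter one, with robust estimation and with upper-quartile scaling. DESeq2 kept 14 of 19, total counts alone 18 and the fits to 4 libraries 18, whereas leaving out DMSO replicate 1 kept 1 and leaving out Degrader replicate 2 kept 3. Counts that moved by over 1.5 times were these. With the replicate block, 7 ZNF genes were higher and 12 lower under GDC0068, 21 and 12 under Degrader, and 4 and 1 between the drugs. Under GDC0068, 1 was called higher with upper-quartile scaling and 1 with robust estimation, and 1 lower in the fit to 4 libraries; under Degrader, 2 were lower by DESeq2, and 5 were higher among genes with no overlapping interval on either strand. Leaving out 1 library at a time gave 0 to 1 lower under GDC0068, 0 to 9 higher and 0 to 4 lower under Degrader, while the share of all genes called ran from 0.185% to 2.74% and from 4.67% to 16.1%. The medians were then -0.0375 to 0.0031 under GDC0068, 0.0113 to 0.0328 under Degrader and 0.0228 to 0.0528 between the drugs. Among intervals of at least 50% of the RefSeq length, the Degrader median was 0.0355, an alternative chosen after seeing the data.

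Signs changed only where no call stood. The GDC0068 change of ZNF264 ranged from -0.0361 (without GDC0068 replicate 2) to 0.219 without single libraries, and was -0.0348 without DMSO replicate 1. Between the drugs, ZNF121 (-8e-04) was at 0.0027 with DESeq2, 0.0039 without the filter, 7e-04 with the stricter filter, 1e-04 in the fit to 4 libraries and -0.0214 to 0.0308 without single libraries; ZNF552 was at -0.0305 to 0.091 and DNMT1 at -0.0502 to 0.0462 without single libraries. The cause of these shifts was not tested. Gaps of 250 and 1000 kb gave 11 and 9 clusters in place of 10, and promoter groups numbered 15 at 60% identity and 4 at 80%. Depth bears on the least transcribed genes: the standard error under Degrader was 0.203 for ZNF723, with as few as 57 counts in a library, and 0.0855 at the median of the ZNF genes.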
